A study of Homo sapiens with 6 samples.

Results

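The genes described here are the chromatin modifier and histone genes of a table of expression in SNU668, a long-established line of human gastric cancer cells of the signet-ring type. They are the protein-coding genes annotated to chromatin organization, chromatin remodeling, a histone methyltransferase complex, histone acetylation, histone deacetylation or nucleosome assembly, together with DPY30, EZH2 and KDM3A. Names starting with ZNF and genes annotated to cell division, DNA replication or mRNA processing were left out, apart from these 3. The rule found 32 genes among 2128 listed genes, of which 1841 were protein-coding. KDM3A was the 1 member without any of the terms. The terms are broad, so that the members include a secreted carboxypeptidase (CPA4) and a proliferation marker (MKI67) beside enzymes that act on histones.

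RNA-seq was performed on 3 libraries titled shControl, with genotype given as wild type, and 3 titled shGPER, in which GPER1, which encodes a membrane receptor for estrogen, was knocked down with a short hairpin RNA. The kit for mRNA kept strand. The sources do not say whether the control cells carried a hairpin, how many hairpins were used, or whether replicate libraries were grown separately, so any p-value reflects the scatter among these 6 libraries and may be technical. Levels are given as TPM, a length-corrected share of the transcripts of a library. Levels of GPER1 were 10.41 to 11.04 TPM in shControl cells against 1.83, 2.41 and 2.47 TPM after knockdown, 20.7% of the control mean.

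DNA is wound around octamers of histones. Writers add methyl or acetyl groups to histone tails, erasers remove them, remodelers use ATP to move nucleosomes, and chaperones deliver histones to DNA. Methylation of histone H3 by the COMPASS complexes, which share the subunit DPY30, marks active promoters, whereas methylation by Polycomb repressive complex 2, whose catalytic subunit is EZH2, marks silenced genes.

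Every one of the 32 members had 1 TPM or more in 3 or more libraries, and limma was used on log2(TPM + 1). In shGPER cells 13 rose and 19 fell (adjusted p under 0.05), and none was left uncalled. Of all 1651 genes tested, 98.4% were called, 47.8% as higher and 50.6% as lower. The listed genes had evidently been selected, since nearly all of them separate the groups, and so neither the calls nor their number is a finding about the members. For the same reason the 3 shGPER values of every member lay outside the range of the 3 shControl values, as they did for 97.4% of the tested genes. The median log2 fold change was -0.81 over the members and -0.49 over all tested genes, and the median size was 1.10 and 1.05. On this scale 10 members rose and 10 fell by at least 2-fold, which 32.0% and 24.2% of the tested genes did.

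**Figure D1:**
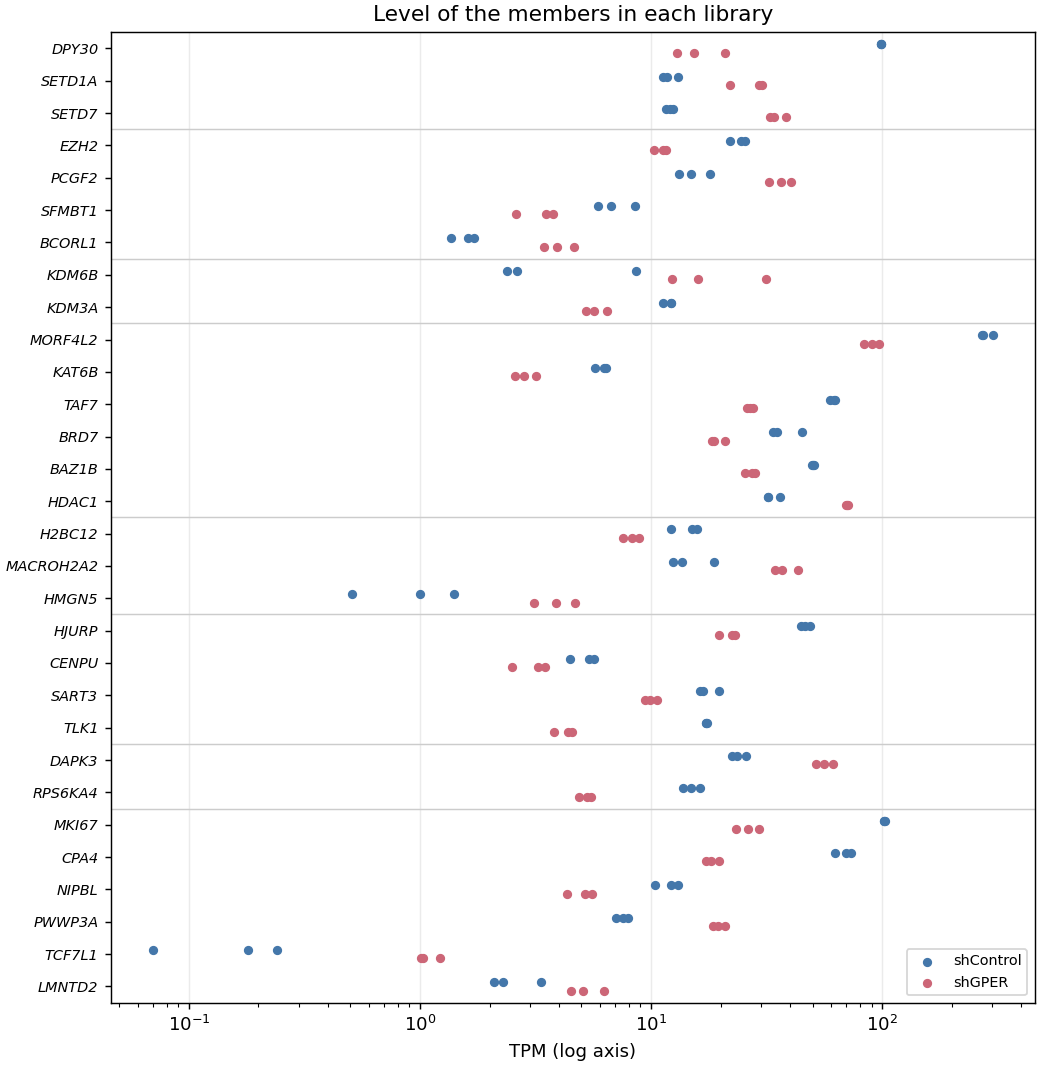
TPM of the members described (rows, ordered by role, grey lines between roles) in each library on a log axis, with shControl libraries in blue and shGPER libraries in red, 1 point per library. In no row do the 3 values of a group reach into the range of the other, and KDM6B has the widest spread within groups relative to its level in shGPER cells, from 12.34 to 31.34 TPM.

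The members together held 1475 to 1503 TPM in control and 852 to 944 TPM in knockdown cells. All listed genes together also fell, from between 61181 and 64236 TPM to between 46584 and 49148 TPM. The members' share of that total was 2.34 to 2.41% in control and 1.83 to 1.93% in knockdown cells. A few abundant members weigh heavily in the sum, and MORF4L2 alone had means of 282 and 90.4 TPM. The order of the members changed between the groups. MKI67 and DPY30 went from ranks 3 and 4 to ranks 12 and 18, while SETD7 went from rank 20 to 8 and KDM6B from rank 28 to 14. In bulk RNA, fewer cells expressing a gene and less RNA of it per cell cannot be told apart.

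Among the H3 lysine methyltransferase genes, DPY30 had the largest fall of all members. DPY30 (ENSG00000162961; chromosome 2, 31867809 to 32039812, minus strand, GRCh38) was at 99.22, 99.38 and 99.13 TPM in shControl and at 12.95, 15.36 and 20.85 TPM in shGPER. The control libraries were nearly identical and the highest shGPER value was 4.75-fold below the lowest of them. Mean levels were 99.2 ± 0.127 TPM in control and 16.4 ± 4.05 TPM in knockdown cells (SD, n = 3 each), and the log2 fold change was -2.55 (SE 0.14; limma, adjusted p = 9.28e-07). An exact permutation test, two-sided, gave p = 0.1, the smallest that 3 against 3 libraries allow. In the GENCODE annotation 50.5% of the exon bases of DPY30 are shared with MEMO1 on the same strand, so reads of the 2 genes are hard to divide, and MEMO1 was not analysed here.

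SETD1A, a catalytic subunit of the COMPASS complexes that DPY30 joins, moved the other way. It was at 11.68, 13.08 and 11.23 TPM in shControl and at 21.95, 29.20 and 30.21 TPM in shGPER (limma, log2 fold change 1.10, SE 0.12, adjusted p = 3.93e-05). In control cells DPY30 transcripts were 7.60 to 8.83 times as many as those of SETD1A, and in shGPER cells 0.526 to 0.690 times as many. The order of these subunit transcripts was thus turned in every shGPER library. This pair was chosen after its values were seen. After removal of the trend with GC content, described below, SETD1A lost its call at 0.12. SETD7, a methyltransferase of H3 and of other proteins that acts without that complex, rose from 11.58, 12.04 and 12.42 to 32.71, 38.27 and 34.12 TPM (limma, log2 fold change 1.47, SE 0.08, adjusted p = 7.16e-07).

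Genes of the Polycomb system also went both ways, with 3 higher and 2 lower. EZH2 (ENSG00000106462; chromosome 7, 148807383 to 148884321, minus strand) was at 25.52, 21.97 and 24.60 TPM in shControl and at 11.30, 10.28 and 11.59 TPM in shGPER. Its mean was 46.0% of that of control cells (limma, log2 fold change -1.05, SE 0.08, adjusted p = 5.20e-06; exact permutation p = 0.1). PCGF2 belongs to Polycomb repressive complex 1, which can be recruited by the mark that EZH2 makes. It rose from 14.83, 18.05 and 13.21 to 32.26, 36.38 and 40.50 TPM (limma, log2 fold change 1.20, SE 0.12, adjusted p = 2.24e-05). Of the PCGF2 exon bases 32.7% lie opposite to exons of CISD3, and the sources used here do not state if counting made use of strand.

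The other members of this set were expressed at lower levels. SFMBT1, an MBT-domain protein of Polycomb-type repression, went from 5.89, 8.49 and 6.70 to 3.51, 3.76 and 2.60 TPM (limma, log2 fold change -0.90, SE 0.16, adjusted p = 0.000547). BCORL1, a corepressor of a variant Polycomb complex, went from 1.62, 1.36 and 1.72 to 3.45, 3.93 and 4.65 TPM (log2 fold change 0.96). SFMBT1 shares 13.8% of its exon bases with a second annotated gene on the same strand.

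The promoters of 4 members hold a sequence of the type bound by E2F factors, which drive genes of the S phase. These are shown because all 4 genes fell in the main fit. After removal of the trend with GC content, described below, this no longer held. CENPU was then called higher at 0.32, NIPBL lost its call at -0.19 and EZH2 shrank to -0.29. RefSeq windows from 250 bases before to 50 bases after a start (GRCh38.p14) were matched by symbol for 24 of the 32 members, 32 windows in all, and SFMBT1, TLK1, MORF4L2, SART3, DPY30 and LMNTD2 were among those without a match. They were searched on both strands for TTTGGCGC and TTTCGCGC (E2F type), CCAAT (the sequence bound by NF-Y) and TTTGAA (the core of the CHR element of cell cycle genes). Capitals mark the E2F-type and CCAAT matches, on either strand, in the strand of the gene.
EZH2, chr7:148884272-148884400, minus strand: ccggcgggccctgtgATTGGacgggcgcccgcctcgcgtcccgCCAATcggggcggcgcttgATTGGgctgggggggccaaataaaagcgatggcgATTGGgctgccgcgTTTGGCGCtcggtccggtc
NIPBL, chr5:36876705-36876742, plus strand: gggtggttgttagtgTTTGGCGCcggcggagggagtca
CENPU, chr4:184734111-184734322, minus strand: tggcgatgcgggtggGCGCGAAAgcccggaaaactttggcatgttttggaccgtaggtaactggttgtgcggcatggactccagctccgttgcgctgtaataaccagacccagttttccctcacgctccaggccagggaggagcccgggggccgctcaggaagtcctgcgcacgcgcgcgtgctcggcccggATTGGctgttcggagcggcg
H2BC12, chr6:27146918-27147084, minus strand: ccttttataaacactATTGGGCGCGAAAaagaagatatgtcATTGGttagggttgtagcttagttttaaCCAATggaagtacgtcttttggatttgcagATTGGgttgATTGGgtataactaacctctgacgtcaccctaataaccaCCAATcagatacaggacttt

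In EZH2 the E2F-type match begins 1 base after the start base, behind 4 CCAAT matches that begin at positions -94 to -13 relative to the start. Another EZH2 window, chr7:148883436-148883735, held none of the motifs searched. In H2BC12 6 CCAAT matches were found, the first directly followed by the E2F-type match, so the pair reads as 1 run of capitals. A match describes these letters only and shows neither binding nor a cause. Over all RefSeq promoter windows 0.652% hold TTTGGCGC, 0.515% TTTCGCGC, 34.6% CCAAT and 15.2% TTTGAA. Windows of the listed protein-coding genes gave 0.956%, 0.956%, 32.8% and 11.3%, and those of the members 6.25%, 9.38%, 46.9% and 9.38%. By gene, 2 of 24 members held TTTGGCGC and 2 TTTCGCGC, against 20 and 17 of 1398 listed protein-coding genes. These shares were not tested. Among called protein-coding genes of the table with a matched promoter 22 of 32 with an E2F-type match fell, and 608 of 1133 fell whatever the motif. CCAAT was found in 12 members, of which 9 fell, among them MKI67 and HJURP, and of the called protein-coding genes with CCAAT 273 of 479 (57.0%) fell. TTTGAA was found in HJURP, TAF7 and MKI67, which fell, as did 122 of 178 (68.5%) of the called protein-coding genes with it.

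The histone demethylase genes moved in opposite directions. KDM3A removes methyl groups from H3 lysine 9 and is known as a hypoxia-induced gene. It was at 12.17, 12.26 and 11.32 TPM in shControl and at 5.22, 5.68 and 6.42 TPM in shGPER (limma, log2 fold change -0.93, SE 0.10, adjusted p = 2.15e-05; exact permutation p = 0.1). KDM6B, which removes the mark made by EZH2, was at 2.62, 8.63 and 2.37 TPM in shControl and at 16.03, 31.34 and 12.34 TPM in shGPER. Its log2 fold change was 1.99 (SE 0.45; limma, adjusted p = 0.00237), with the largest error of the members. Library 2 was the high one in both groups, and the lowest shGPER value was 1.43-fold above the highest shControl value. In control libraries 1 and 3 KDM3A exceeded KDM6B 4.65-fold and 4.78-fold, and in control library 2 1.42-fold. In every shGPER library, by contrast, KDM6B was the higher, with a ratio of 0.181 to 0.520. This pair too was chosen after its values were seen. Without the trend with GC content both genes lost their call, KDM3A at -0.10 and KDM6B at 1.09.

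**Figure D2:**
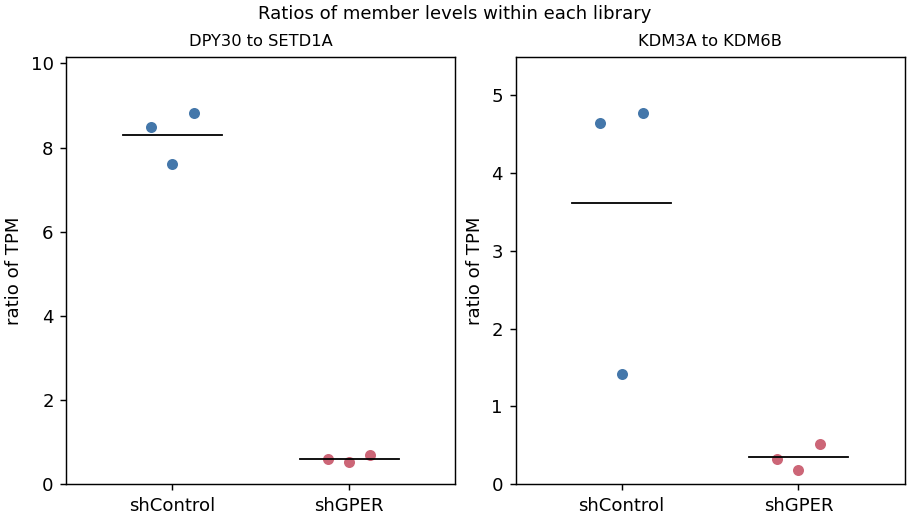
Ratio of the TPM of 2 members within each library (points; black line, mean of 3 libraries; axes start at 0), with shControl in blue and shGPER in red. DPY30 to SETD1A, at 0.526 to 0.690, and KDM3A to KDM6B, at 0.181 to 0.520, were below 1 in every shGPER library and above 1 in every shControl library. The pairs were chosen after their values were seen. SETD1A, KDM3A and KDM6B lost their call after removal of the trend with GC content.

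Of 6 members of acetylation, deacetylation and remodeling complexes 5 fell, as did 50.6% of all tested genes. MORF4L2, a subunit of the NuA4 acetyltransferase and of SIN3 deacetylase complexes, was at 300.84, 273.85 and 271.04 TPM in shControl and at 83.84, 96.58 and 90.78 TPM in shGPER (limma, log2 fold change -1.63, SE 0.07, adjusted p = 2.91e-07). It was 32.1% of the control mean, the lowest share among these 6. TAF7, a TFIID subunit that restrains the acetyltransferase activity of TAF1, went from 61.87, 59.45 and 62.36 to 26.11, 27.53 and 26.89 TPM (log2 fold change -1.16). KAT6B, a MYST-family acetyltransferase, went from 6.37, 5.70 and 6.23 to 2.59, 3.19 and 2.83 TPM (log2 fold change -0.88). All 3 were called lower with no overlap between the groups, where 98.4% of tested genes were called and 97.4% did not overlap. Without the trend with GC content KAT6B lost its call at -0.15.

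BRD7, a bromodomain subunit of the PBAF form of SWI/SNF, went from 33.62, 35.09 and 45.04 to 18.64, 18.30 and 20.99 TPM (log2 fold change -0.93). Of its exon bases 42.3% lie opposite to exons of ADCY7. BAZ1B, which forms the WICH remodeler with an ISWI ATPase, went from 50.53, 49.87 and 50.25 to 25.55, 27.43 and 28.16 TPM (log2 fold change -0.87). HDAC1, the class I deacetylase of the SIN3, NuRD and CoREST complexes, was the member of this set that rose, from 32.00, 31.97 and 35.98 to 69.62, 70.93 and 70.56 TPM (limma, log2 fold change 1.06, SE 0.06, adjusted p = 1.18e-06).

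Among histones and nucleosome-binding proteins, an H2B gene fell and a macroH2A gene rose. H2BC12, the H2B gene, went from 15.09, 15.78 and 12.25 to 7.56, 8.28 and 8.88 TPM (limma, log2 fold change -0.73, SE 0.11, adjusted p = 0.00024). H2BC12 is uncertain, since 86.3% of its 31-nt words also occur in transcripts of other genes. Messengers of replication-dependent histones mostly end without a poly(A) tail, and how the mRNA kit affected H2BC12 was not tested.

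MACROH2A2, which encodes a variant H2A with a large globular domain, rose from 13.60, 18.78 and 12.43 to 34.33, 36.70 and 43.26 TPM (limma, log2 fold change 1.31, SE 0.15, adjusted p = 4.24e-05). HMGN5, a nucleosome-binding protein of the HMGN family, rose from 1.00, 0.51 and 1.41 to 3.12, 4.68 and 3.86 TPM (limma, log2 fold change 1.32, SE 0.19, adjusted p = 0.000188). Its level was low, and the log2 fold change of HMGN5 was 1.97 with a pseudocount of 0.1. Too few shControl libraries reached 1 TPM for HMGN5 to pass the filter without the shGPER libraries. Its direction was thus partly set by the filter.

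All 4 members that act as chaperones, on chaperones or at centromeres fell, as did 50.6% of all tested genes. This grouping was made after the values were seen. HJURP, the chaperone that loads the centromeric histone CENP-A, went from 46.55, 48.70 and 44.56 to 22.35, 19.78 and 23.06 TPM (limma, log2 fold change -1.07, SE 0.08, adjusted p = 2.56e-06). TLK1, the kinase that phosphorylates the histone chaperone ASF1, fell the most of the 4, from 17.22, 17.21 and 17.52 to 3.80, 4.54 and 4.36 TPM (limma, log2 fold change -1.81, SE 0.09, adjusted p = 4.45e-07). SART3, a splicing recycling factor that also binds histones, went from 19.63, 16.21 and 16.86 to 9.43, 10.58 and 9.91 TPM (log2 fold change -0.76). CENPU, a subunit of the centromere complex around CENP-A, had the smallest fall of all members, from 5.39, 4.46 and 5.64 to 3.47, 3.24 and 2.51 TPM (limma, log2 fold change -0.60, SE 0.13, adjusted p = 0.00218). Its lowest shControl value was 1.29-fold above its highest shGPER value. Without the trend with GC content CENPU was called higher, at 0.32. MKI67, the Ki-67 protein that coats mitotic chromosomes and marks cycling cells, went from 102.41, 101.55 and 102.54 to 26.33, 23.32 and 29.31 TPM (log2 fold change -1.92). The part of cell cycling in the fall of HJURP, CENPU, H2BC12 and EZH2 was not tested.

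The pair of kinases that phosphorylate histone H3 went opposite ways. DAPK3, a death-associated kinase, rose from 25.68, 23.49 and 22.49 to 51.58, 56.21 and 61.38 TPM (limma, log2 fold change 1.20, SE 0.08, adjusted p = 2.21e-06). RPS6KA4, the mitogen- and stress-activated kinase MSK2, fell from 13.71, 16.32 and 14.87 to 5.28, 5.47 and 4.86 TPM (limma, log2 fold change -1.36, SE 0.09, adjusted p = 2.34e-06). These kinases were set side by side after their values were seen. After removal of the trend with GC content, described below, DAPK3 lost its call at 0.15, and RPS6KA4 was at -2.44.

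The remaining members reach the rule through single terms. CPA4, a secreted carboxypeptidase annotated to histone acetylation, went from 62.77, 70.02 and 73.61 to 17.29, 18.16 and 19.64 TPM (log2 fold change -1.85). NIPBL, which loads cohesin onto DNA, went from 12.18, 10.39 and 13.13 to 4.33, 5.16 and 5.53 TPM (log2 fold change -1.10). PWWP3A, a PWWP-domain protein of the DNA damage response, went from 7.53, 7.94 and 7.06 to 18.45, 20.85 and 19.52 TPM (log2 fold change 1.28). Of these 3, PWWP3A was the 1 that rose. LMNTD2, a lamin tail domain protein, went from 2.29, 3.34 and 2.10 to 4.50, 5.08 and 6.25 TPM (log2 fold change 0.82), and 37.4% of its exon bases lie opposite to an antisense transcript. TCF7L1, an HMG-box factor of the Wnt pathway, was at 0.18, 0.07 and 0.24 TPM in shControl and at 1.03, 1.22 and 1.01 TPM in shGPER. It passed the filter only through the shGPER libraries, which leaves it no other direction.

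The base composition of the transcripts moved with direction. The median GC content was 57.9% for the 13 members that rose and 47.9% for the 19 that fell, against 59.6% and 44.3% over all called genes. As a description across genes, which share libraries and are not independent, the rank correlation of log2 fold change with GC content was 0.38 over the 32 members and 0.59 over 1626 tested genes. Of 7 members under 45% GC 1 rose, HMGN5, as did 46 of 489 called genes of the table. HMGN5 passed the filter only with the shGPER libraries, so its direction carries little weight here. At 60% GC or more 5 of 7 members rose and 374 of 410 called genes did. The members at that level which fell were RPS6KA4 and H2BC12. Between 45 and 50% GC, SETD7 alone rose of 9 members, and 66 of 252 called genes rose.

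**Figure D3:**
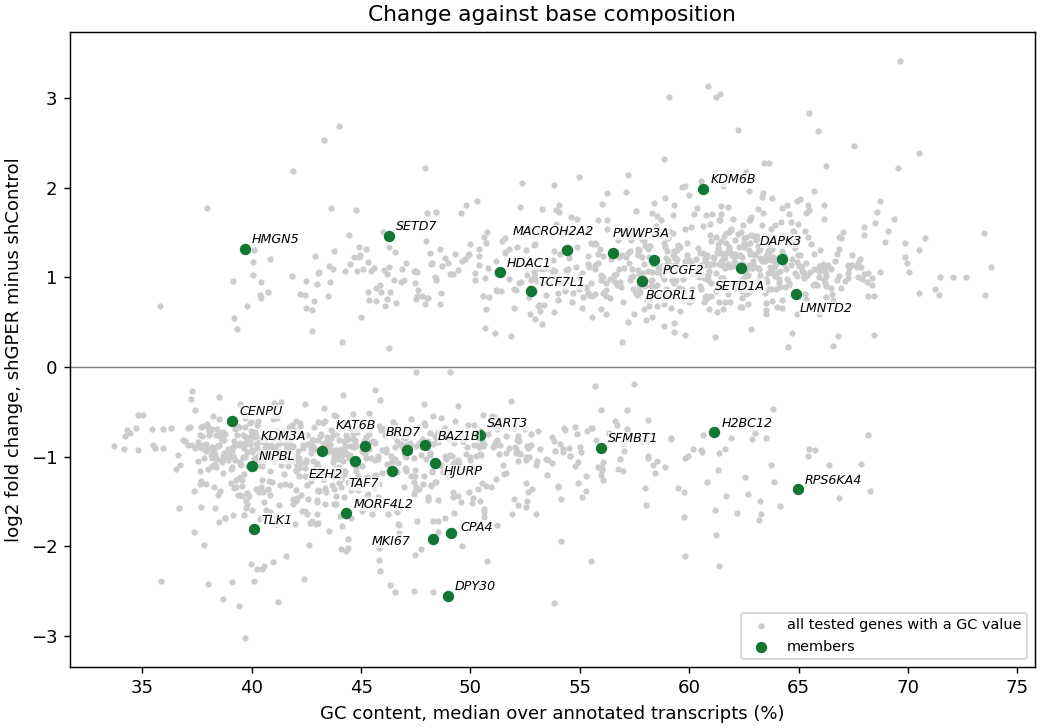
Log2 fold change (shGPER minus shControl, vertical axis) against median GC content of the annotated transcripts (percent, horizontal axis) for tested genes (grey) and the members described (green, named). HMGN5 and SETD7 rose at low GC content, and RPS6KA4 and H2BC12 fell at high GC content. HMGN5 passed the filter only with the shGPER libraries.

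When the trend with GC content was removed from each library, 23 of the 32 members (71.9%) kept their call and direction, as did 964 of 1600 called genes, and 9 members were then called higher and 15 lower. Of the 1626 tested genes with a GC value 62.6% were called in this fit, 31.5% as higher and 31.1% as lower, whatever their call before. The trend was fitted to these selected genes, so losing a call in this way is no evidence of an unchanged level. SETD1A, KDM6B and DAPK3 lost their call at log2 fold changes of 0.12, 1.09 and 0.15, and KDM3A, KAT6B and NIPBL at -0.10, -0.15 and -0.19. LMNTD2 lost it at -0.26, and CENPU was called higher at 0.32. EZH2 shrank from -1.05 to -0.29, still called (limma, adjusted p = 0.0153). By contrast, other members changed more in size without the trend. RPS6KA4 went from -1.36 to -2.44, H2BC12 from -0.73 to -1.66, SFMBT1 from -0.90 to -1.39, HMGN5 from 1.32 to 2.24 and SETD7 from 1.47 to 2.11, whereas HDAC1, at 1.14, moved little. DPY30 stayed at -2.18, MKI67 at -1.47, CPA4 at -1.49 and MACROH2A2 at 1.01. Among those still called, MORF4L2 shrank to -0.85, TLK1 to -0.89, TAF7 to -0.53, HJURP to -0.63, BRD7 to -0.36, BAZ1B to -0.38, PCGF2 to 0.46, PWWP3A to 0.73 and BCORL1 to 0.27.

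**Figure D4:**
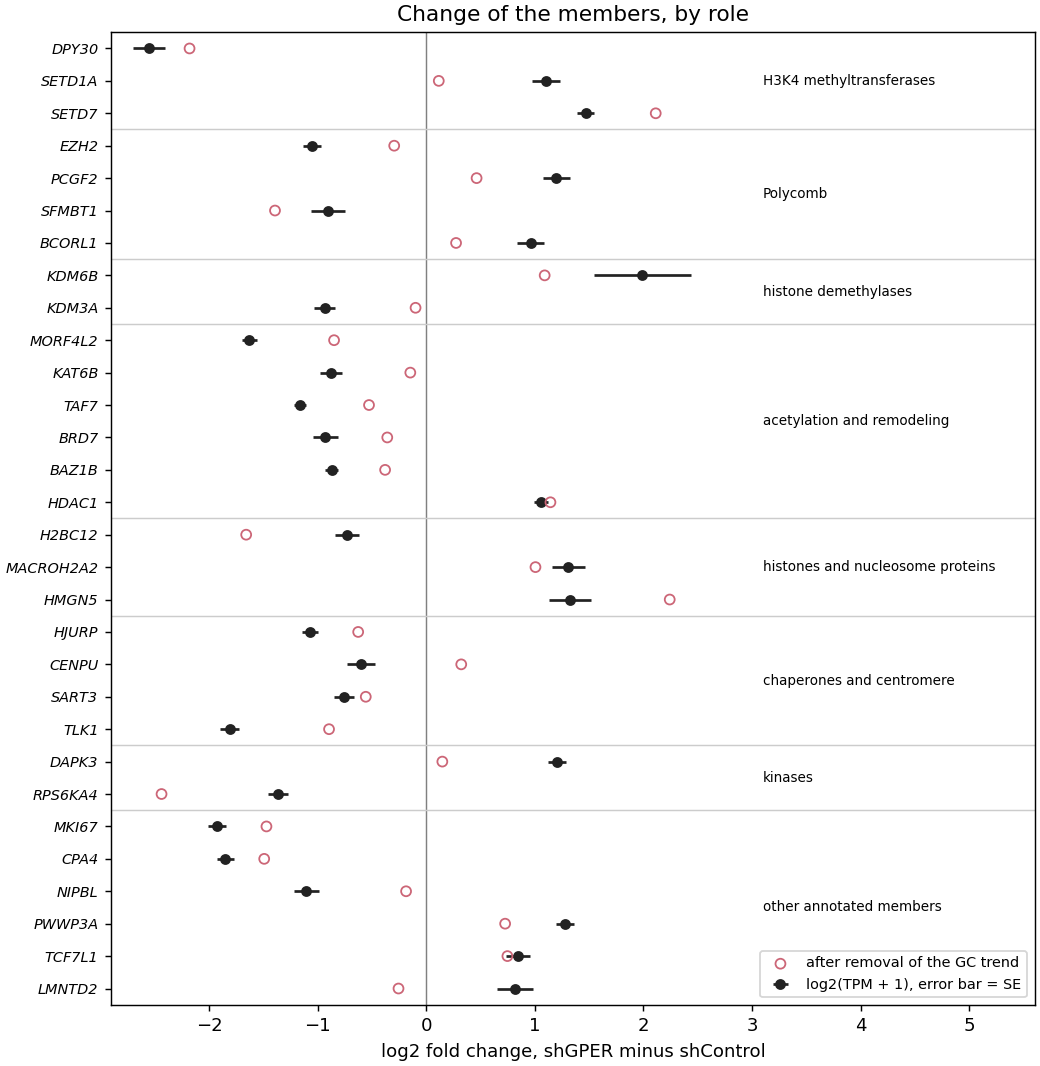
Log2 fold change of the members described (rows, by role; black points with SE, 3 against 3 libraries) and the value after removal of the GC trend (open red circles). DPY30 stays the furthest left but for RPS6KA4, SETD1A and DAPK3 come close to 0, and HMGN5, SETD7, RPS6KA4, SFMBT1 and H2BC12 move away from 0.

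Other genes of the same machinery were counted from 14 lists of chromatin genes by role, which include symbols outside the rule. The table held 26 such genes, 24 of them tested, of which 5 rose and 18 fell (limma, adjusted p under 0.05). Of all 1651 tested genes 47.8% rose and 50.6% fell, so being called is no finding about these genes. Without the GC trend 3 rose and 10 fell, against 31.5% and 31.1% of the tested genes with a GC value. All 4 ISWI, CHD and INO80 remodeler genes fell, with UCHL5, a deubiquitinase of INO80, going from 69.5 ± 3.88 to 34.4 ± 1.72 TPM and CFDP1, a chromatin protein related to yeast Swc5, from 43.6 ± 1.79 to 13.3 ± 1.17 TPM (SD, n = 3 each). Of 4 histone chaperone genes 3 fell. SET, a chaperone and inhibitor of acetylation, went from 173 to 59.3 TPM and DNAJC9, a heat shock co-chaperone of H3 and H4, from 83.6 to 18.6 TPM (log2 fold change -2.11). The nucleosome-binding HMGN2 fell from 376 ± 8.90 to 120 ± 2.96 TPM, whereas its relative HMGN5, which passed the filter only with the shGPER libraries, rose.

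Of 4 other methyltransferase genes 3 fell, including the H3 lysine 36 enzyme NSD2, from 39.6 to 23.1 TPM, and the actin methyltransferase SETD3, from 41.6 to 21.5 TPM. The fourth, the arginine methyltransferase PRMT6, rose from 7.59 to 30.2 TPM (log2 fold change 1.86), and is named here after its value was seen. The Polycomb gene PCGF5 fell from 41.1 to 21.8 TPM, while its paralog PCGF2 rose. The corepressor NCOR1 and CIR1 fell, from 32.5 to 15.5 and from 9.75 to 4.39 TPM. Of 2 demethylase genes KDM2A rose from 11.7 to 24.1 TPM and KDM1B fell from 12.4 to 6.55 TPM. The ubiquitin enzymes of histone H2B, UBE2B and RNF20, fell from 34.0 to 16.6 and from 14.2 to 3.61 TPM, BICRA of SWI/SNF rose from 2.40 to 6.44 TPM, and MBD6, of the methyl-CpG-binding domain family, from 5.79 to 15.7 TPM. H3C10 was not called, at 1.99, 3.05 and 2.00 TPM in shControl and 1.18, 3.07 and 2.64 TPM in shGPER. Without the GC trend UCHL5, TTF2, CIR1, PCGF5, KDM1B, UBE2B, SETD2, BICRA and CABIN1 were among the genes that lost their call, of which TTF2, SETD2 and CABIN1 are named here after their values were seen.

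Of the labelled cell type's markers the table listed 1 of 8 epithelial genes, CDH1, below 1 TPM in every library, and 1 of 7 gastric genes, TFF1, so the label could hardly be checked. CDH1 was at 0.44 to 0.71 TPM in shControl and 0.11 to 0.42 TPM in shGPER libraries, and was not tested. TFF1 was at 4.44 to 6.22 and 0.26 to 2.91 TPM, and was called lower. Of 6 neuroendocrine markers 4 were listed and rose, their sum going from 6.82 to 7.41 TPM in shControl up to 64.2 to 65.3 TPM in shGPER libraries. The sum of 5 of 7 fibroblast markers was 7.04 to 9.92 and 31.9 to 33.3 TPM, with COL1A1 higher and DCN and LUM lower. That of 2 of 5 endothelial markers was 2.09 to 2.52 and 7.52 to 8.71 TPM, with CDH5 higher and ERG not called. None of 6 leukocyte markers was analysed here. The part of these shifts in the changes of the members was not tested.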

How the data were processed

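Each of the 6 libraries, 3 shControl and 3 shGPER by title, has its own table. The authors deposited TPM, per the file headers. Tools in the submitters' processing notes are fastp, HISAT2 and RSEM, and the build is hg38, without versions or settings. The listed genes make up 4.66 to 6.42% of all TPM, so most expression was not analysed here, and how they were selected is not given in those sources. TPM keep no read depth, so no counting error is given.

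With limma 3.58.1 (R 4.3.3, intensity trend, no covariates) log2(TPM + 1) was modelled for the 1651 genes that reached 1 TPM in 3 or more of the 6 libraries; two-sided p-values were adjusted by Benjamini and Hochberg over all of them, with a threshold of 0.05. The fit was tested on simulated data in which most genes were unchanged, unlike here. That test therefore says little about calls among these selected genes. For low genes this scale makes fold changes too small. Members and lists were chosen with earlier results of these data known. The naming rule takes DPY30, EZH2 and KDM3A, the 10 largest rises and 10 largest falls among called members averaging 5 TPM or more in either group, up to 4 members per role list by mean TPM, and from each list up to 2 genes outside the members. It gives 28 members; the other 4 (BCORL1, CENPU, SART3, TCF7L1), KNL1, the grouping of members by role and the pairs set in ratio were chosen after their values were seen. The ratios have no test. Some genes are not reported here. Positions, exon overlaps and GC content (median over transcripts) come from GENCODE 29 (GRCh38, also called hg38), matched for 2078 of 2128 genes. The GC trend was a natural spline with 3 degrees of freedom per library. Python 3.11.15, pandas 2.3.3 and scipy 1.17.1 were used. Other alternatives changed the pseudocount, the filter, the scaling (median centring or quantile normalization) or the intensity trend, added a replicate block, or left out 1 library at a time.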

Additional observations from a re-analysis of the deposited data

How the results depend on the processing

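The 32 members kept direction and call with pseudocounts of 0.1 and 0.5, no filter, median centring, quantile normalization, no intensity trend and the replicate block, with 13 higher and 19 lower in each. Median centring moved the median log2 fold change of all tested genes by 0.15. The numbers in the titles did not pair the libraries: deviations of same-numbered libraries correlated at 0.03, -0.09 and 0.01, and with the replicate block GPER1 stayed at -1.87. With a filter of 5 TPM 27 members were tested (9 higher, 18 lower). Without any 1 library all tested members kept their call, TCF7L1 being untested without any shGPER library. Members without a cell cycle term numbered 11 higher and 14 lower. Without the GC trend 3 genes outside the rule were higher and 10 lower, the log2 fold change of CENPU turned to 0.32, the log2 fold change of LMNTD2 to -0.26, the log2 fold change of TTF2 to 0.17 and the log2 fold change of SETD2 to 0.041. The log2 fold change of H3C10, not called, turned to 0.31 without the GC trend, to 0.10 with median centring, and ranged from -0.23 to 0.22 without 1 library. The cause of these shifts was not tested. Read depth is unknown, which limits what can be said of genes near 1 TPM.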

Other observations

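The rule removed genes that carry a chromatin term and also a term of cell division, DNA replication or mRNA processing. Among them, SET and KNL1 fell and CABIN1 rose. KNL1, a kinetochore scaffold, was at 6.57, 6.81 and 7.27 TPM in shControl and at 3.49, 3.96 and 3.53 TPM in shGPER libraries. CABIN1, a subunit of the HIRA chaperone complex, was at 9.81, 9.42 and 8.28 TPM and at 14.78, 22.87 and 24.63 TPM, with shGPER library 1 below the other two.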
